A study of Mus musculus with 26 samples.

Results

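The Notch pathway was followed through 10 genes, namely the receptors Notch1, Notch2 and Notch3, the ligands Dll1, Dll4, Jag1 and Jag2, and the target genes Hes1, Hey1 and Nrarp. They were taken by symbol from the 55391 gene rows of a RNAseq count table, and all 10 passed the filter on low counts that left 14264 genes for testing. The libraries came from EA1, EA2 and EA3, lung cancer cell lines that were isolated from C57BL/6 mice and carry the EML4-ALK fusion. Each line was grown in dishes with 100 nM alectinib, an ALK inhibitor, or with its solvent DMSO at 0.1%, and on days 1, 2, 3 and 5 a single library was taken from each line and treatment. This gives 4 libraries per line and treatment and 24 in all, in which the 4 days stand in for replicates because no library was repeated within a day. The p-values therefore rest on spread over days and not between repeat cultures. For the alectinib effect this is the spread of the same-day difference between treatments, with the 3 lines in 1 fit.

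The library totals lay between 5780060 and 11732400 counts, rounded to 6 digits. A pair of further libraries, labelled EA3 day 7, went against their label, since their log2 levels over 14335 genes correlated with the EA2 mean at r = 0.961 and 0.966 and with the EA3 mean at r = 0.878 and 0.870, whereas libraries of days 1 to 5 correlated with the mean of the other libraries of their line at 0.940 or more. They were therefore kept out of the comparisons below and entered 1 alternative fit only. The epithelial markers Cdh1, Krt8, Krt18 and Krt19 were detected in every library, while Epcam had 0 counts in each EA2 alectinib library. With Epcam they summed to 1821 to 2687 CPM in EA2 DMSO libraries and 561 to 1176 CPM in EA2 alectinib libraries. The medians with DMSO and alectinib were 5998 and 3940 CPM in EA1 and 5483 and 4040 CPM in EA3. Cdh1 went the other way in EA2, from a mean of 64.7 CPM with DMSO to 188 CPM with alectinib. Krt8, Krt18 and Krt19 had lower means there with alectinib, Krt19 with overlapping ranges. Epcam was at most 0.631 CPM in EA2 DMSO libraries. The part of these markers in the EA2 falls of Notch1, Jag1 and Jag2 reported below was not tested. The alveolar type 2 marker Sftpc and the club cell markers Scgb1a1 and Scgb3a2 had at most 3 counts in every library. Counts of all tested genes that passed the threshold, an adjusted p under 0.05 in edgeR's quasi-likelihood test (Benjamini-Hochberg over all genes tested), were split nearly evenly by direction, with 53.2% of the calls higher with alectinib in EA1, 53.6% in EA2 and 51.0% in EA3. This share became 64.6%, 48.3% and 64.8% when libraries were scaled by their totals alone, which moved the median log2 fold change of all genes to 0.16 in EA1, -0.04 in EA2 and 0.18 in EA3. The calls on the members below were kept under that scaling, where Notch2 and Notch3 in EA1 and Hes1 in EA2 passed as well.

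Notch receptors are single-pass membrane proteins that are activated by ligands of the Delta-like and Jagged families on a neighboring cell. Ligand binding exposes the receptor to cleavage by an ADAM protease and then by gamma-secretase, and the released intracellular domain enters the nucleus, joins the DNA-binding protein RBPJ and a Mastermind coactivator, and switches on genes such as Hes1, Hey1 and Nrarp. HES1 and HEY1 are transcriptional repressors, and NRARP is a small ankyrin-repeat protein that limits Notch signaling by destabilizing the intracellular domain. In the lung the pathway is known for the choice between secretory and ciliated fates in the airway epithelium and for vascular smooth muscle and pericytes, where Notch3 is the characteristic receptor. DLL4 is best known from endothelial cells.

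With alectinib, Nrarp and Jag2 were lower in all 3 lines, as were 4.42% of all genes tested, and on 12 of 12 line and day pairs, and Notch2 was higher on 12 of 12 pairs. The other members moved in particular lines. Dll1 fell 22.8-fold in EA3 and Hey1 rose 12.5-fold in EA1 as ratios of mean CPM (counts relative to the library total, scaled by edgeR's TMM factors), Notch1 and Dll4 fell in EA2, Jag1 fell in EA1 and EA2, and Hes1 fell in EA3. Notch3 did not pass the threshold in any line.

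The members are spread over 5 chromosomes of the mm10 mouse genome. In GENCODE annotation, Notch1 (chr2:26457903-26516663), Dll4 (chr2:119325784-119335962), Jag1 (chr2:137081456-137116644) and Nrarp (chr2:25180758-25183339) lie on chromosome 2. Notch2 (chr3:98013527-98150361) and Hey1 (chr3:8663359-8667256) lie on chromosome 3, and Notch3 (chr17:32120820-32166852) and Dll1 (chr17:15367354-15376872) on chromosome 17. Jag2 lies at chr12:112907819-112929776 and Hes1 at chr16:30064384-30067796. Counts were over exons, whose merged length was 2037 bases for Hes1, the shortest, and 14232 bases for Notch1, the longest. Nrarp shares 79.4% of its exon bases with Gm38287 on the opposite strand, and Gm38287 had 0 counts in all 24 libraries. The library kit marks strand, but the strand setting of the counts is not stated in the sources used here, so it is open whether reads in the shared bases were counted for Nrarp, and its level is uncertain. Dll1 shares 20.5% of its exon bases with A930024N18Rik, which had between 0 and 11 counts, and no other overlap reached 10% of a member's exon bases.

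The promoters of Nrarp, the target that fell in every line, and Dll1, the member whose alectinib effect differed most between lines, are shown from 250 bases before to 50 bases after the start site (RefSeq, GRCm38.p6). Dll1 has a pair of listed starts, of which the one inside the gene is shown. Capitals mark the letters CACGTG, the E-box bound by MYC and by HEY proteins among others.
Nrarp promoter, chr2:25180508-25180807, plus strand: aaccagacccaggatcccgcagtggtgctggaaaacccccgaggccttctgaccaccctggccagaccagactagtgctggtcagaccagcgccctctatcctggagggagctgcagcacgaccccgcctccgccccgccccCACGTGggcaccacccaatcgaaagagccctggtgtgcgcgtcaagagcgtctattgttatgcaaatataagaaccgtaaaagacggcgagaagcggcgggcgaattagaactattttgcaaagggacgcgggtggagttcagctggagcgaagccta
Dll1 promoter, chr17:15375774-15376073, minus strand: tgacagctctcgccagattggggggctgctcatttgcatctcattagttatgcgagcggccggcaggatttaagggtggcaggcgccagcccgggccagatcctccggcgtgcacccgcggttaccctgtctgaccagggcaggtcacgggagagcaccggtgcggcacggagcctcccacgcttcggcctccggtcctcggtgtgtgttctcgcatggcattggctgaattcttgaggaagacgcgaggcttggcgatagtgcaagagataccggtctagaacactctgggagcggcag
The E-box of Nrarp lay at bases -108 to -103 from the start site. It was the only one in the 9 windows on hand, which belong to 8 members (all but Hes1 and Hey1), and 7.15% of 32851 RefSeq promoters hold this motif. TGGGAA, the core of the RBPJ site, was searched on both strands and had no match in the 9 windows, against 25.6% of all promoters. CCGGAA, the core of the ETS site, had none either, against 14.9%. The E-box was added to the search after the sequences had been read. These are matches of letters in a short window and no measurement of binding.

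Levels of different genes were compared as CPM per kb of exon. In DMSO cultures, Notch2 was the most abundant of the 3 receptors in each line and made up 91.6% ± 3.96 (SD, n = 4 days) of their summed level per kb in EA1, 88.3% ± 2.65 in EA2 and 68.0% ± 4.19 in EA3. Notch1 took 27.8% ± 3.85 in EA3, against 6.05% ± 2.60 in EA1 and 11.0% ± 2.07 in EA2, and its range in EA3 did not overlap those of the other lines. Among the ligands Jag1 led in EA1 with 121 ± 85.4 CPM per kb and in EA2 with 12.2 ± 5.95 CPM per kb. In EA3 the Jag1 level of 35.1 ± 22.4 CPM per kb stood beside 32.6 ± 15.3 CPM per kb for Dll1, a difference within the spread of the days. Jag2, which is structurally close to Jag1, had 34.5 ± 5.06 CPM per kb in EA1, 2.97 ± 0.466 in EA2 and 18.6 ± 5.41 in EA3. Hes1 was the most abundant target in DMSO, at 44.0 ± 13.2, 13.4 ± 4.81 and 55.7 ± 32.6 CPM per kb in EA1, EA2 and EA3. Nrarp and Hey1 stayed below Hes1, the former between 1.96 and 6.42 CPM per kb and the latter between 0.566 and 0.890 CPM per kb as means per line. The sum of the 4 ligands in DMSO was 158.5 ± 80.6 CPM per kb in EA1, 86.4 ± 41.1 in EA3 and 17.4 ± 7.54 in EA2, so that EA2 carried the least ligand transcript per length.

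**Figure D1:**
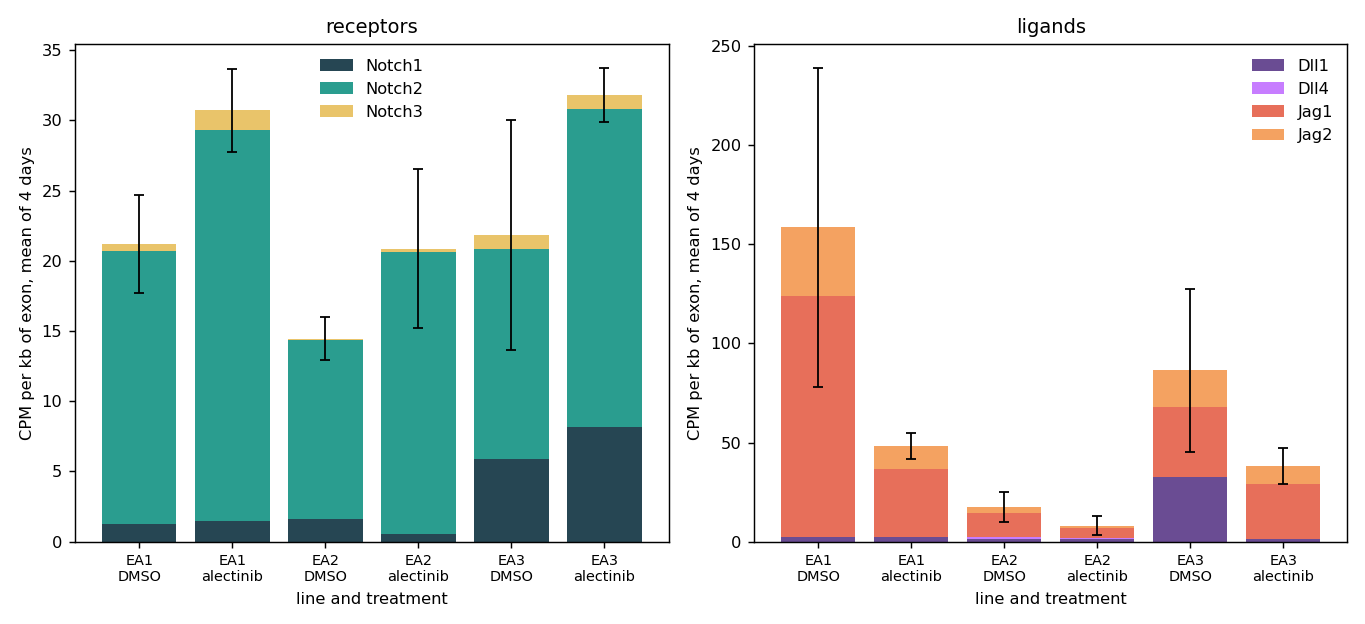
Stacked bars show the mean level of each receptor (left) and ligand (right) in CPM per kb of exon over 4 days, by line and treatment, and the black bars are ± 1 SD of the summed level. Notch2 fills most of each receptor bar, and the Dll1 level is 32.6 CPM per kb in EA3 DMSO and at most 2.51 in the other groups. As a share of the ligand bar Dll1 is largest in EA3 DMSO (37.8%) and next in EA2 alectinib (20.7%).

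Without drug, the lines differed in the level of 8 of the 10 members, in a test with 2 degrees of freedom over the 12 DMSO libraries, and 55.6% of the 12886 genes tested there did so too. Notch2 (adjusted p = 0.0715) and Hey1 (adjusted p = 0.260) were the exceptions. For Dll1, EA3 exceeded EA1 by 3.55 (95% confidence interval 2.96 to 4.14, adjusted p = 1.8e-06) on the log2 scale and EA2 by 4.61 (95% confidence interval 3.99 to 5.24, adjusted p = 2.22e-07). Notch1 in EA3 lay above EA1 by 2.24 (95% confidence interval 1.65 to 2.84, adjusted p = 6.87e-05). Both Jagged genes were lowest in EA2, with log2 differences between EA2 and EA1 of -3.16 (95% confidence interval -3.57 to -2.75, adjusted p = 1.14e-07) for Jag1 and -3.56 (95% confidence interval -4.06 to -3.06, adjusted p = 2.23e-07) for Jag2. Dll4 went the other way, since EA2 was above EA1 by 4.67 (95% confidence interval 3.08 to 6.27, adjusted p = 0.000336) and EA3 was below EA2 with a difference of -3.38 (95% confidence interval -4.80 to -1.96, adjusted p = 0.00169). Hes1 in EA2 was also below EA1, by a log2 difference of -1.68 (95% confidence interval -2.38 to -0.98, adjusted p = 0.00139), while EA3 against EA1 gave 0.22 (95% confidence interval -0.46 to 0.89, adjusted p = 0.631). Nrarp was higher in the order EA1, EA2 and EA3, with each pair of lines past the threshold (adjusted p between 0.000150 and 0.0113). Notch3 was lower in EA2 than in EA1, by a log2 difference of -2.60 (95% confidence interval -4.38 to -0.82, adjusted p = 0.0239), but its test over the 3 lines was lost without day 2 or without day 5.

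The alectinib effect was fitted per line with the 12 line and day pairs as blocks, and SE stands for the standard error of a log2 fold change. In EA1 it passed the threshold for 1 member that was higher, Hey1, and 3 that were lower, Jag1, Jag2 and Nrarp, where 18.0% of all tested genes were called higher and 15.8% lower. In EA2 1 member was higher, Notch2, and 5 were lower, Notch1, Dll4, Jag1, Jag2 and Nrarp, against 13.0% and 11.3% of all genes. In EA3 1 member was higher, Notch2, and 4 were lower, Dll1, Jag2, Hes1 and Nrarp, against 16.5% and 15.8% of all genes. In EA1, EA2 and EA3 the 10 members had median log2 fold changes of -0.21, -1.07 and -0.30, beside medians over all tested genes of 0.03 in EA1, 0 after rounding in EA2 and 0.04 in EA3. The effect differed between the lines for 3 of the 10 members, Dll1, Hey1 and Notch1, and for 7.05% of all genes tested. In these bulk samples, fewer cells that express a gene and less RNA per cell cannot be told apart.

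**Figure D2:**
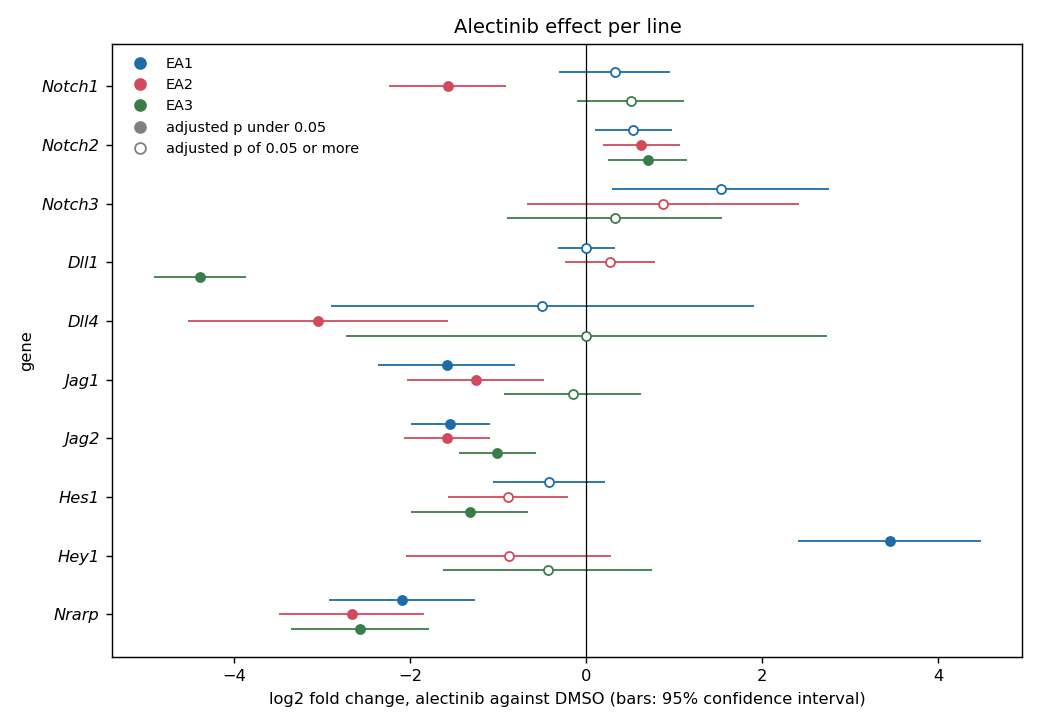
Points give the log2 fold change of alectinib against DMSO for each member and line, with bars for the 95% confidence interval. Filled points passed an adjusted p of 0.05. All 3 Nrarp and Jag2 points lie below 0 and are filled, the Dll1 point of EA3 stands apart at -4.39 and the Hey1 point of EA1 at 3.45.

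Notch1, a receptor with broad roles in epithelial and T cell fate, had 16.9, 18.4, 25.7 and 30.3 CPM on days 1, 2, 3 and 5 in EA2 with DMSO and 9.44, 5.19, 9.86 and 6.0 CPM with alectinib. All alectinib libraries of EA2 were below all DMSO libraries. The log2 fold change was -1.58 (SE 0.31, 95% confidence interval -2.24 to -0.91, adjusted p = 0.00223). In EA1 the levels were 26.6, 11.4, 10.9 and 23.3 CPM with DMSO and 17.8, 19.5, 22.4 and 25.1 CPM with alectinib, and the groups overlapped. In EA3, the line with the highest Notch1, DMSO libraries had 102, 47.9, 101 and 85.4 CPM and alectinib libraries 139, 119, 87.1 and 119 CPM, which overlap as well. The log2 fold changes there were 0.32 (SE 0.29, adjusted p = 0.413) in EA1 and 0.51 (SE 0.28, adjusted p = 0.188) in EA3. The effect differed between lines (adjusted p = 0.0149), with EA2 below EA1 by a log2 difference of -1.90 (95% confidence interval -2.81 to -0.98, adjusted p = 0.0194). That call was lost without day 2, 3 or 5 in all lines and without the EA2 libraries of day 5 (adjusted p of 0.0560 to 0.113), and with all 26 libraries (0.206).

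Notch2, which is structurally close to Notch1 and has the largest receptor level here, was higher with alectinib on every day in every line. EA1 libraries had 206, 167, 262 and 203 CPM with DMSO and 286, 304, 338 and 274 CPM with alectinib, without overlap. EA2 libraries had 133, 130.4, 131 and 155 CPM and 189, 155, 288 and 235 CPM, again without overlap though only by a narrow margin between DMSO day 5 and alectinib day 2. EA3 libraries had 168, 81.9, 244 and 150.1 CPM and 225, 235, 252 and 264 CPM, where DMSO day 3 reached into the alectinib range. The log2 fold changes were 0.53 (SE 0.20, adjusted p = 0.0569) in EA1, 0.62 (SE 0.20, adjusted p = 0.0395) in EA2 and 0.70 (SE 0.21, adjusted p = 0.0199) in EA3, and the test between lines gave an adjusted p of 0.913. The EA3 and EA1 values differed by 0.16 (95% confidence interval -0.46 to 0.78, adjusted p = 0.850). These calls sat near the threshold. The EA2 call was lost without day 1, 3 or 5 in all lines or in EA2 alone and without the EA1 libraries of day 5 (adjusted p of 0.0604 to 0.237). The EA3 call was lost without day 2 or 5 in all lines or in EA3 alone (0.0659 to 0.141) and without the line and day blocks (0.0513), and its value was 0.41 and 0.42 without day 2 in all lines and in EA3 alone. EA1 passed the threshold without the EA2 libraries of day 2 or the EA3 libraries of day 1, 2 or 3 (0.0247 to 0.0495), and also under library totals alone, with no filter or a stricter filter on low counts, with each line fitted alone and in DESeq2 (0.0181 to 0.0471). In DESeq2 Notch2 was thus called higher in all 3 lines.

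Notch3, the receptor known from vascular smooth muscle and pericytes, was the least abundant receptor and varied over the days. In EA1 it had 3.43, 2.97, 1.12 and 8.41 CPM on the 4 days with DMSO and 4.42, 7.95, 16.0 and 16.2 CPM with alectinib. In EA3 the values were 0.547, 1.57, 11.0 and 18.7 CPM with DMSO and 1.02, 2.63, 13.9 and 14.9 CPM with alectinib, so that both treatments were low on days 1 and 2 and high on days 3 and 5. EA2 had between 2 and 45 counts in a library. The groups overlapped in each line, and the log2 fold change was 1.53 (SE 0.57, adjusted p = 0.0538) in EA1, 0.87 (SE 0.72, adjusted p = 0.416) in EA2 and 0.32 (SE 0.57, adjusted p = 0.699) in EA3. On leaving out libraries the EA2 value ranged from 0.25 to 1.78. In EA1 the value passed the threshold without day 1 in all lines or in EA1 alone and without the EA2 libraries of day 1 or 5 (adjusted p of 0.0260 to 0.0419). It passed too in DESeq2 (0.0217), without a filter on low counts (0.000466) and with library totals alone (0.0473). It was smaller without day 3, at 0.89 (adjusted p = 0.313) in all lines and 0.92 (0.234) in EA1 alone. The sum of the fibroblast and pericyte list (Col1a1, Col3a1, Pdgfra, Pdgfrb and Rgs5) moved in EA1 as well. It went from 35.3 to 142 CPM in DMSO libraries to 317 to 1169 CPM in alectinib libraries. Pdgfra, at 0 to 0.663 CPM in EA1 alectinib libraries, did not pass the threshold (adjusted p = 0.527), while Col1a1, Col3a1, Pdgfrb and Rgs5 did. The sum of the list was 1.02 to 2.40 CPM in EA2 DMSO and 4.15 to 20.2 CPM in EA2 alectinib, and 12.3 to 19.0 CPM in EA3 DMSO and 79.4 to 222 CPM in EA3 alectinib. Col3a1 rose in EA1 with an adjusted p of 3.80e-06 and Rgs5, a pericyte marker, with 1.41e-05. The part of these transcripts in the Notch3 and Hey1 values was not tested.

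**Figure D3:**
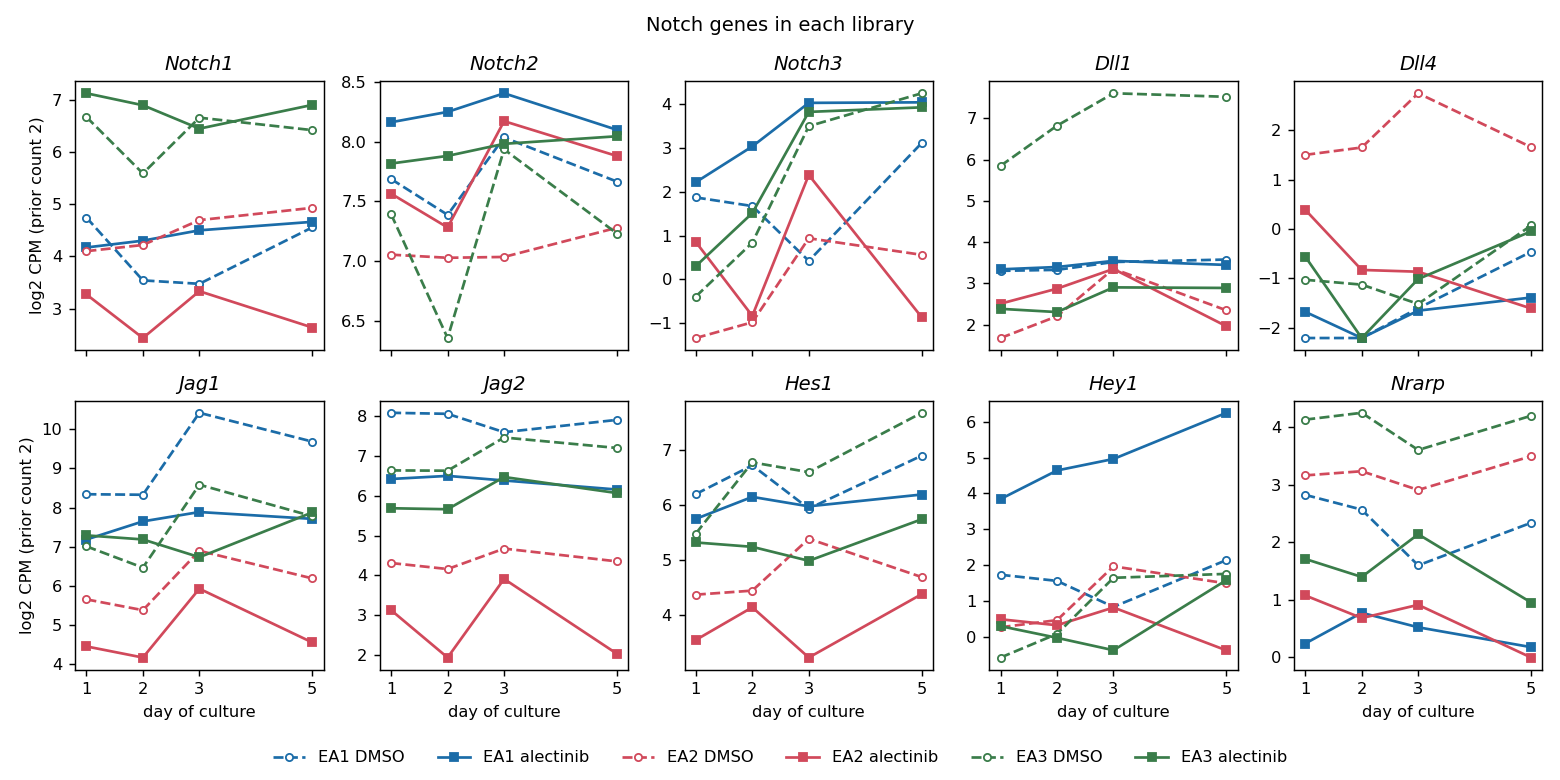
Log2 CPM with a prior count of 2 (vertical axes, which differ between panels) of each member against the day of culture, in 24 libraries. Open circles and dashed lines are DMSO, filled squares and solid lines alectinib, colored by line. Dll1 in EA3 DMSO and Hey1 in EA1 alectinib run far above all other groups of their panels, and the Nrarp panel separates DMSO from alectinib within each line.

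Dll1, a Delta-like ligand, gave the largest difference between lines in the alectinib effect among the 10 members. In EA3 with DMSO it had 57.5, 113, 195 and 184 CPM on days 1, 2, 3 and 5, and with alectinib 4.99, 4.72, 7.26 and 7.19 CPM. The groups were far apart, since the lowest DMSO library held 630 counts and the highest alectinib library 78. In EA1 the levels were 9.65, 9.82, 11.2 and 11.7 CPM with DMSO and 9.91, 10.3, 11.5 and 10.7 CPM with alectinib, and in EA2 2.97, 4.38, 10.0 and 4.86 CPM and 5.46, 7.10, 9.97 and 3.67 CPM. Both of these pairs overlapped. The log2 fold change was -4.39 (SE 0.24, 95% confidence interval -4.92 to -3.87, adjusted p = 2.82e-07) in EA3 and 0.27 (SE 0.24, adjusted p = 0.446) in EA2, while the interval in EA1 ran from -0.32 to 0.32 around 0. The effect in EA3 lay below that in EA1 with a log2 difference of -4.39 (95% confidence interval -5.08 to -3.70, adjusted p = 3.05e-05) and below that in EA2 with -4.66 (95% confidence interval -5.38 to -3.95, adjusted p = 1.15e-05). Between EA2 and EA1 the difference was 0.27 (95% confidence interval -0.43 to 0.97, adjusted p = 0.642). With alectinib the EA3 mean of 6.04 CPM lay between those of EA2 with DMSO (5.55 CPM) and EA2 with alectinib (6.55 CPM), with overlapping ranges, and the EA3 alectinib libraries were below every EA1 library. Dll1 took 37.8% ± 9.12 of the ligand sum per kb in EA3 DMSO and 3.81% ± 0.968 with alectinib. The direction, the EA3 call and the call between lines were kept under each alternative run, with log2 fold changes in EA3 between -4.64 and -4.00. Among markers of other cell types, the summed club and secretory list was at 26.9 to 371.6 CPM in EA3 DMSO libraries and at 3.16 to 28.7 CPM in alectinib libraries. Of its 5 genes, Scgb1a1, Scgb3a2, Agr2 and Spdef had at most 3 counts in every EA3 library, and the airway mucin Muc5b made up the rest and fell in EA3 with an adjusted p of 0.000317. In EA2, where Dll1 was not called, this list also went from 6.76 to 30.6 CPM in DMSO libraries to 0.111 to 1.39 CPM with alectinib. The alveolar type 1 list (Ager, Hopx and Aqp5, nearly all of it Aqp5) went from 188 to 275 CPM in EA3 DMSO libraries to 59.1 to 79.9 CPM with alectinib. It also went from 126 to 207 CPM to 49.9 to 74.3 CPM in EA2. The fall of this list was that of Aqp5 alone. In EA3 Ager went the other way, from 2.81 CPM with DMSO to 7.11 CPM with alectinib as means (adjusted p = 0.0220), and Hopx was near 0. The part of these transcripts in the Dll1 result was not tested.

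Dll4, the Delta-like ligand known from endothelium, was a low transcript that reached more than 7 counts only in EA2. There it had 29, 20, 65 and 35 counts on days 1, 2, 3 and 5 with DMSO and 11, 2, 3 and 1 with alectinib, which correspond to 2.61, 2.92, 6.50 and 2.94 CPM and 1.09, 0.346, 0.332 and 0.111 CPM. The groups did not overlap, and the log2 fold change was -3.05 (SE 0.68, 95% confidence interval -4.52 to -1.57, adjusted p = 0.00587). The call was lost when day 3 was left out in all lines (adjusted p = 0.0803). Without day 1 the value was -3.94 in all lines and -3.95 in EA2 alone. In EA1, counts were 0, 0, 1 and 4 with DMSO and 1, 0, 1 and 2 with alectinib, and in EA3 3, 2, 1 and 5 and 5, 0, 3 and 7, so that a fall in these lines was not detectable at this depth. The effect was not shown to differ between lines (adjusted p = 0.161). The 5 endothelial markers summed to 1.98 to 5.70 CPM in EA2 DMSO libraries and to 0.173 to 0.997 CPM in EA2 alectinib libraries. Tek and Emcn had at most 3 counts in each library of the 6 groups, and so had Cdh5 in EA2. Pecam1 was at 2.22 CPM in EA2 with DMSO and 0.392 CPM with alectinib as means of 4 days, and its part in the Dll4 result was not tested.

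Jag1, the most abundant ligand per kb in EA1, was lower with alectinib in EA1 and EA2. In EA1 it had 323, 321, 1366 and 821 CPM with DMSO and 145, 200.1, 236 and 209 CPM with alectinib, and no alectinib library reached the DMSO range. In EA2 the values were 50.3, 41.5, 119 and 72.9 CPM and 21.8, 17.8, 60.7 and 23.3 CPM, lower on 4 of 4 days although the day 3 alectinib library lay inside the DMSO range. In EA3 DMSO libraries had 129, 88.3, 383 and 219 CPM and alectinib libraries 156, 145, 106 and 235 CPM, with overlap and a lower value on day 3 only. Day 3 was the highest DMSO day in each of the 3 lines. The log2 fold changes were -1.59 (SE 0.36, adjusted p = 0.00490) in EA1, -1.26 (SE 0.36, adjusted p = 0.0216) in EA2 and -0.16 (SE 0.36, adjusted p = 0.776) in EA3, and the test between lines had an adjusted p of 0.169. The EA2 call was lost without day 1 or 5 in all lines and without the EA2 libraries of any single day (adjusted p of 0.0546 to 0.111), and also without the line and day blocks (0.0967) and with all 26 libraries (0.0701). The EA3 value became 0.37 without day 3 in all lines and 0.39 without the EA3 libraries of that day, in both of which Jag1 passed the test between lines. Jag1 also passed that test with no filter on low counts.

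Jag2, the second Jagged ligand, was lower in each line. EA1 had 269, 264, 192 and 238 CPM with DMSO and 85.1, 89.8, 82.9 and 70.8 CPM with alectinib. EA2 had 19.6, 17.7, 25.3 and 20.2 CPM and 8.54, 3.64, 14.9 and 3.89 CPM, and EA3 98.8, 98.3, 175 and 146 CPM and 51.1, 50.3, 88.1 and 66.6 CPM. None of the 3 pairs of groups overlapped, and Jag2 was lower on 12 of 12 line and day pairs. The log2 fold changes were -1.54 (SE 0.21, adjusted p = 0.000137) in EA1, -1.58 (SE 0.23, adjusted p = 0.000240) in EA2 and -1.01 (SE 0.21, adjusted p = 0.00234) in EA3. The test between lines had an adjusted p of 0.321, and the intervals of the differences reached from -0.08 to 1.15 between EA3 and EA1, which does not show that the effects were equal. With alectinib the ligand sum was 48.3 ± 6.49 CPM per kb in EA1, 8.09 ± 4.64 in EA2 and 38.3 ± 9.04 in EA3.

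Among the targets, Nrarp was lower with alectinib in each line and on each day. EA1 had 64, 50, 25 and 38 counts on the 4 days with DMSO and 10, 12, 12 and 11 with alectinib, or 6.86, 5.71, 2.81 and 4.84 CPM and 0.962, 1.49, 1.22 and 0.911 CPM. EA2 had 8.74, 9.20, 7.30 and 11.1 CPM and 1.89, 1.38, 1.66 and 0.778 CPM, and EA3 17.3, 18.8, 12 and 18.2 CPM and 3.05, 2.41, 4.19 and 1.72 CPM. The groups did not overlap in any line. Mean DMSO CPM exceeded mean alectinib CPM 4.41-fold (EA1), 6.35-fold (EA2) and 5.83-fold (EA3). The log2 fold changes were -2.09 (SE 0.39, 95% confidence interval -2.93 to -1.26, adjusted p = 0.00129) in EA1, -2.67 (SE 0.39, 95% confidence interval -3.49 to -1.84, adjusted p = 0.000236) in EA2 and -2.57 (SE 0.37, 95% confidence interval -3.36 to -1.78, adjusted p = 0.000221) in EA3. No difference between lines was detected (adjusted p = 0.702), with intervals of the differences within -1.75 and 1.16. All 3 calls held whichever day or line and day pair was left out.

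Hes1 was also lower as a mean in each line, but the groups overlapped. In EA3 it had 44.5, 109, 96.5 and 204 CPM with DMSO and 39.8, 37.6, 31.5 and 53.3 CPM with alectinib, where the DMSO library of day 1 lay inside the alectinib range. EA1 had 73.3, 105, 61.0 and 119 CPM and 53.6, 70.7, 62.7 and 72.8 CPM, and EA2 20.5, 21.6, 41.7 and 25.7 CPM and 11.5, 17.5, 9.20 and 20.7 CPM. The lowest DMSO library and the highest alectinib library of EA2 differed by less than 1 CPM. The log2 fold change was -1.32 (SE 0.31, 95% confidence interval -1.99 to -0.66, adjusted p = 0.00552) in EA3, -0.89 (SE 0.32, adjusted p = 0.0565) in EA2 and -0.42 (SE 0.30, adjusted p = 0.284) in EA1. The EA2 value passed the threshold without the EA3 libraries of day 1 (adjusted p = 0.0264), in DESeq2 (0.0178), with DESeq2 size factors (0.0494) or library totals alone (0.0441), without a filter on low counts (0.000901) and with all 26 libraries (0.0426). Without day 3, in all lines or in EA2 alone, it was -0.49 (adjusted p of 0.296 and 0.297). The effect did not pass the test between lines (adjusted p = 0.338).

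Hey1 rose in EA1, where Nrarp fell and Hes1 did not pass the threshold. There it had 3.11, 2.74, 1.57 and 4.20 CPM on days 1, 2, 3 and 5 with DMSO and 14.1, 24.7, 30.9 and 75.7 CPM with alectinib. The lowest alectinib library held 147 counts and the highest DMSO library 33. In EA2 and EA3 Hey1 stayed between 5 and 37 counts, at 2.11 ± 1.28 CPM (SD, n = 4 days) with DMSO and 1.08 ± 0.413 CPM with alectinib in EA2 and at 1.85 ± 1.39 and 1.28 ± 1.02 CPM in EA3, with overlapping groups. The log2 fold change was 3.45 (SE 0.48, 95% confidence interval 2.41 to 4.49, adjusted p = 0.000197) in EA1, -0.88 (SE 0.54, adjusted p = 0.267) in EA2 and -0.44 (SE 0.55, adjusted p = 0.575) in EA3. The effect in EA2 lay below that in EA1 with a log2 difference of -4.33 (95% confidence interval -5.87 to -2.78, adjusted p = 0.00386), and that in EA3 with -3.89 (95% confidence interval -5.45 to -2.32, adjusted p = 0.0166). The test over the 3 lines (adjusted p = 0.00450) was lost without day 3 (0.0529) or without day 5 (0.0599) in all lines. Per kb of exon, Hey1 in EA1 went from 0.890 ± 0.332 CPM with DMSO to 11.1 ± 8.31 CPM with alectinib, where Hes1 stood at 31.9 ± 4.29 CPM per kb. The summed fibroblast and pericyte markers given above were higher in the same EA1 libraries. Their sum was also higher with alectinib in EA2 and EA3, where Hey1 did not pass the threshold.

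The days served as replicates, so it was asked whether the alectinib effect changed over them. None of the 10 members passed the test of a slope on log2 day in edgeR (smallest adjusted p = 0.232, for Dll1), where 0.161% of all genes did, and 2 members, Dll1 and Hey1, had an unadjusted p under 0.05 there. DESeq2 also called none. The log2 ratio of alectinib to DMSO for Hey1 in EA1 was 2.11, 3.08, 4.12 and 4.10 on days 1, 2, 3 and 5, and for Dll1 in EA3 it was -3.47, -4.52, -4.71 and -4.64. For Dll4 in EA2 it was -1.11 on day 1 and -2.48, -3.61 and -3.27 on the later days. In DMSO alone, Notch3 rose with culture time by 1.21 (SE 0.35, adjusted p = 0.0331) per doubling of days, and it was the only member past the threshold, beside 17.1% of all genes. That call was lost without day 1, 2 or 5 (0 members called), and without day 3 Dll1, Hes1, Hey1 and Jag1 passed as well, so that 5 members were called. With alectinib alone no member of the 9 tested passed, against 0.408% of genes, and Notch3 and Hey1 had an unadjusted p under 0.05 (0.0384 and 0.0176). Dll4 was too low with alectinib to enter that test, and DESeq2 called none.

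**Figure D4:**
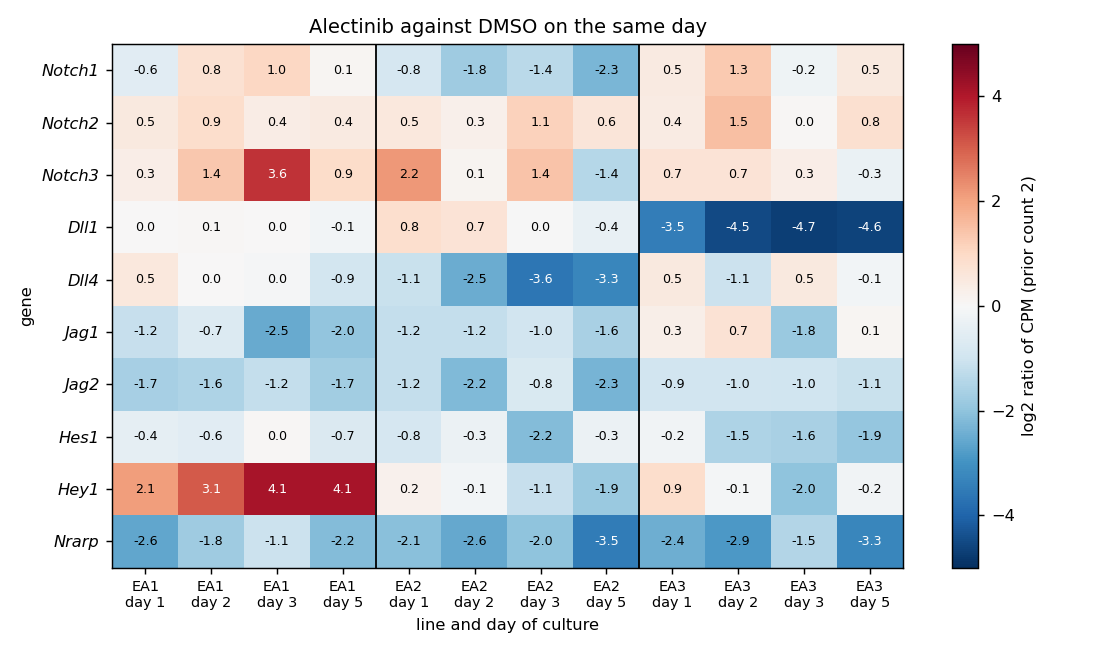
Each cell is the log2 ratio of alectinib to DMSO on the same day, on CPM with a prior count of 2, for a member (row) and a line and day (column). Blue cells are lower and red cells higher with alectinib. The Jag2 and Nrarp rows are blue throughout, Dll1 is dark blue in EA3 only and Hey1 dark red in EA1 only.

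Other genes of the pathway were read from a list of 67, of which 57 were tested. With alectinib 11 of the 57 were higher and 2 lower in EA1, 14 higher and 2 lower in EA2, and 13 higher and 3 lower in EA3. In all, 22.8%, 28.1% and 28.1% of the list were called, beside 33.8%, 24.3% and 32.3% of all genes tested, and its median log2 fold changes were 0.04, 0.15 and 0.15. Of the 57, 24 were called in at least 1 line, beside 53.0% of all genes tested, and 7 were higher in all 3 lines, beside 5.48% of all genes, namely Dlk2, Lfng, Aph1b, Numbl, Dtx3l, Nedd4 and Kat2b. By role, 3, 5 and 5 of the 15 endocytosis and ubiquitin ligase genes tested were higher in EA1, EA2 and EA3, and 3, 1 and 3 of the 10 protease and gamma-secretase genes, beside the 18.0%, 13.0% and 16.5% of all genes given above, and none of either group was lower, beside 15.8%, 11.3% and 15.8%. These are counts over few genes and show nothing particular to either role. Notch4, the fourth receptor, passed the threshold in no line. Rbpj, the DNA-binding partner of the Notch intracellular domain, was the 1 listed gene that fell in all 3 lines, beside 4.42% of all genes. Rbpj had 272 ± 79.1 CPM in DMSO and 89.6 ± 7.20 CPM with alectinib (mean ± SD, n = 4 days) in EA1, 174 ± 14.1 CPM in DMSO and 57.4 ± 23.0 CPM with alectinib in EA2 and 195 ± 35.2 CPM in DMSO and 79.8 ± 2.99 CPM with alectinib in EA3. Its log2 fold changes were -1.56 (SE 0.21, adjusted p = 0.000138) in EA1, -1.68 (SE 0.21, adjusted p = 8.98e-05) in EA2 and -1.27 (SE 0.21, adjusted p = 0.000552) in EA3. Of the coactivators, Maml1 fell in EA1 with a log2 fold change of -0.61 (SE 0.21, adjusted p = 0.0371), and Maml2 rose in EA3 with 0.60 (SE 0.21, adjusted p = 0.0436). The corepressor Tle1 fell in EA3, with -1.13 (SE 0.20, adjusted p = 0.000863). Tle3 rose in EA1 with 0.39 (SE 0.13, adjusted p = 0.0367) and in EA2 with 0.72 (SE 0.13, adjusted p = 0.00159). Of the 14 corepressors tested, 2, 3 and 0 were higher and 0, 0 and 1 lower in EA1, EA2 and EA3, beside the shares of all genes given above.

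Among the other ligands, Dlk2, a Delta-like protein that lacks the receptor-binding domain of classical ligands, rose in each line. It went from 6.35 ± 4.29 CPM in DMSO to 53.5 ± 11.5 CPM with alectinib in EA2, and its log2 fold changes were 3.39 (SE 0.81, adjusted p = 0.00635) in EA1, 3.32 (SE 0.51, adjusted p = 0.000412) in EA2 and 3.12 (SE 0.61, adjusted p = 0.00196) in EA3. In EA1 it went from 0.191 ± 0.236 CPM, near 0, to 2.09 ± 1.20 CPM, and in EA3 from 1.41 ± 2.18 CPM to 8.59 ± 4.48 CPM. Dner, a noncanonical ligand known from neurons, fell in EA2, with -4.29 (SE 0.92, adjusted p = 0.00409), and in EA3, with -3.59 (SE 0.96, adjusted p = 0.0116), from levels of at most 1.49 CPM in DMSO as means per line. Lfng, a glycosyltransferase that modifies the receptors and alters their response to Jagged ligands, rose in EA1 with 1.59 (SE 0.25, adjusted p = 0.000429) and was also called higher in EA2 and EA3. Of the gamma-secretase subunits, Aph1b was called higher in each line, with 1.81 (SE 0.30, adjusted p = 0.000595) in EA1, and Aph1c in EA3, with 2.18 (SE 0.63, adjusted p = 0.0171). Ncstn was called higher in EA1, with 0.39 (SE 0.11, adjusted p = 0.0185), and in EA3, with 0.40 (SE 0.11, adjusted p = 0.0162). Mouse Aph1b and Aph1c are close copies, so that their split of reads is uncertain. Numbl, related to the Notch inhibitor Numb, rose in each line, most in EA2 with 1.79 (SE 0.17, adjusted p = 1.44e-05). Neurl1a, a ubiquitin ligase that acts on ligands, rose in EA3 with 1.84 (SE 0.22, adjusted p = 6.81e-05) and was called in EA2 too, while in EA1 its value was -0.37 (SE 0.29, adjusted p = 0.352).

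Of the HES and HEY genes outside the 10, Hes6 and Hey2 were tested, and Hes2, Hes3, Hes5, Hes7 and Heyl had at most 16 counts in a library. Hey2 rose in EA2 from 0.0894 ± 0.0689 CPM with DMSO to 5.31 ± 1.83 CPM with alectinib, with an adjusted p of 0.000358. In EA3 it had 0.717 ± 0.746 CPM in DMSO and 0.621 ± 0.278 CPM with alectinib, and in EA1 it was at or near 0 in both treatments. Hes6 did not pass the threshold in any line (adjusted p between 0.217 and 0.561). A difference between lines in the response to alectinib was called for 5 of the 57 listed genes (8.77%, beside 7.05% of all genes), which are named here although their values were seen first. They were Adam10, an ADAM protease of the receptor cleavage that follows ligand binding (adjusted p = 0.0111), Neurl1a (0.00618), Numbl (0.0360), the RBPJ-binding protein gene L3mbtl3 (0.0336) and Hey2 (0.0144). Adam10 had 221 ± 11.1 CPM in DMSO and 646 ± 123 CPM with alectinib in EA1, a log2 fold change of 1.53 (SE 0.17, adjusted p = 3.21e-05), and values of 0.34 (SE 0.16, adjusted p = 0.157) in EA2 and 0.40 (SE 0.17, adjusted p = 0.0821) in EA3. Of the HEY genes, then, Hey1 rose in EA1 and Hey2 in EA2, and neither passed the threshold in EA3.

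**Figure D5:**
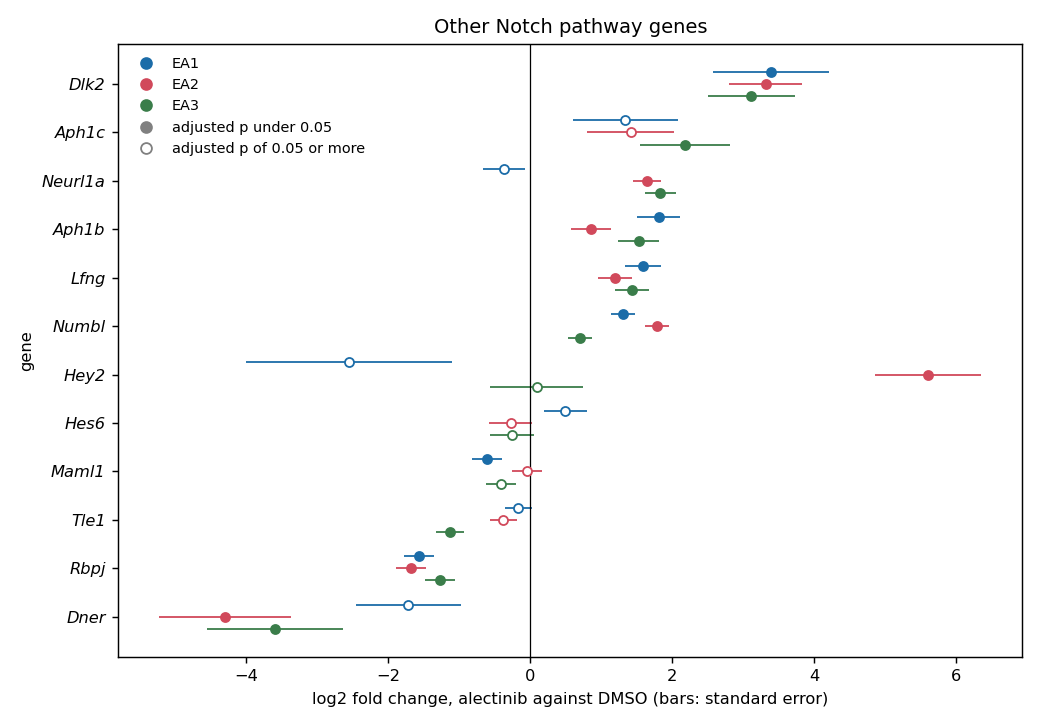
Points give, by line, the log2 fold change of alectinib against DMSO, with bars of 1 standard error. Shown are the called pathway genes outside the 10 members that rose or fell most in each line, and Hes6 and Hey2. Filled points passed an adjusted p of 0.05. Rbpj lies below 0 and Dlk2 above 0 in all 3 lines, and the Hey2 point of EA2 stands alone at 5.61.

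The genes most like each member over the 24 libraries were taken by Pearson's r of log2 CPM. These values describe likeness across libraries that share lines, treatments and days, and they carry no p. For Dll1 they were Tcf23 (r = 0.938), Synpr (0.853) and Kcnk12 (0.849), for Dll4 Rgs16 (0.913), Acmsd (0.905) and Itprid1 (0.903), and for Jag1 Nfe2l2 (0.947), Sepsecs (0.926) and Hid1 (0.916). Jag2 had Casc4 (0.954), Stard10 (0.948) and Tns4 (0.942). Notch1 had Erbb3 (0.942), Evpl (0.926) and Adap1 (0.925), Notch2 had Atrn (0.947), Tulp4 (0.928) and Lrrc58 (0.928), and Notch3 had A4galt (0.903), Gprc5b (0.887) and Trpm4 (0.886). For the targets, Hes1 had Tc2n (0.935), Kbtbd11 (0.913) and Tnfsf9 (0.912), Hey1 had Acvrl1 (0.919), C2cd4c (0.914) and Elovl5 (0.914), and Nrarp had Klrc1 (0.940), Cdk9 (0.926) and Gm9429 (0.915). No member was among the 3 closest genes of another. The first of these for Dll1, Tcf23, a helix-loop-helix gene, moved with alectinib by log2 values of -0.58 (EA1), 2.26 (EA2) and -6.12 (EA3), and Acvrl1, a receptor of the TGF-beta family known from endothelium and first for Hey1, by 1.98, -1.79 and -0.05 in the same order.

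Across the 6 groups of line and treatment, the order of levels placed Dll1 in EA3 DMSO and Hey1 in EA1 alectinib above groups that they did not overlap. For Dll1 the other 5 groups overlapped their neighbors in order, from 5.55 CPM in EA2 DMSO to 10.6 CPM in EA1 DMSO, and the same held for Hey1 from 1.08 CPM in EA2 alectinib to 2.91 CPM in EA1 DMSO. Notch1 was lowest in EA2 alectinib, highest in both EA3 groups, and overlapped among EA1 DMSO, EA1 alectinib and EA2 DMSO in between. Nrarp ran through the 3 alectinib groups and then through EA1, EA2 and EA3 DMSO, and the DMSO groups of EA1 and EA2 did not overlap the group next above them. Jag2 ran from EA2 alectinib and EA2 DMSO to EA3 and EA1 alectinib, EA3 DMSO and EA1 DMSO, and the EA3 and EA1 alectinib groups alone overlapped. Jag1 kept EA2 at the bottom and EA1 DMSO at the top, but every group overlapped the next. Dll4 was above its neighbors in EA2 DMSO. Notch3 groups overlapped throughout, Notch2 had its highest mean in EA1 alectinib, which overlapped EA2 alectinib but not EA3 alectinib, the next mean below it, and Hes1 had a gap between EA3 and EA1 alectinib.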

How the data were processed

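RNA from EA1, EA2 and EA3 cultures was sequenced from stranded mRNA libraries. The authors deposited raw counts per gene. Per the labels and the study's methods they checked reads with FastQC, trimmed adapters with bbduk, and mapped to mm10 and counted with STAR. Versions, the annotation release and the strand column counted are not given in the sources used here. Of 55415 rows, 24 bore dates in place of gene symbols (0.129 to 0.201% of a library) and were left out, and 0 columns of per-sample values went unused. Symbols were matched without regard to case and written in mouse style. Groups followed the labels. A further genotype difference between the source mice and some marker lists are not reported here.

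Genes were filtered with filterByExpr by line and treatment and scaled by TMM in edgeR 4.0.16 (R 4.3.3). The 24 libraries of days 1 to 5 entered a robust quasi-likelihood fit with 12 line and day blocks and an alectinib effect per line, which leaves 9 residual degrees of freedom. The pairing comes from the labelled line and day of culture. Deviations of paired libraries from their group means correlated at 0.0146 to 0.309 in EA1, -0.300 to 0.549 in EA2 and 0.00625 to 0.392 in EA3. A test with 2 degrees of freedom compared that effect between lines, and slopes on log2 day were tested for the effect and, with lines as terms, within DMSO and within alectinib libraries. Lines were compared in DMSO libraries with day as a factor. P-values were adjusted by Benjamini-Hochberg over all genes tested, and calls needed an adjusted p under 0.05. Plots and daily ratios used log2 CPM with a prior count of 2. Exon lengths came from GENCODE exons merged per gene. The fits were tested on simulated data. DESeq2 1.42.0, other scalings, filters and sets of libraries served as alternatives.

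The members, lists and tests were chosen with earlier results of these data known. Of the pathway list, the 3 called genes that rose most and the 3 that fell most in each line were named, with every HES or HEY gene tested, and for each member the 3 genes of highest Pearson correlation. Genes named outside this rule were chosen after their values were seen, as with those whose effect differed between lines, those higher in all 3 lines and the markers.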

Additional observations from a re-analysis of the deposited data

Results flagged for a closer look

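In 3 of 59 groups of 4 days the highest or lowest member level stood apart from the other 3 by Dixon's test at 95%, and chance flags about 1 in 20 groups. They were Notch2 in EA2 with DMSO, highest on day 5 at 155 CPM, Dll4 in EA2 with DMSO, highest on day 3 at 6.50 CPM, and Jag1 in EA2 with alectinib, highest on day 3 at 60.7 CPM. The alectinib effect differed between the 3 lines in edgeR's test of that difference for Notch1 (adjusted p = 0.0149), Dll1 (adjusted p = 1.00e-05) and Hey1 (adjusted p = 0.00450). Notch1 was lower in EA2 on 4 of 4 days, Dll1 was lower in EA3 on 4 of 4 days and Hey1 was higher in EA1 on 4 of 4 days.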

How the results depend on the processing

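The number of members whose DMSO level changed with day was 1, and it became 3 with DESeq2 size factors, 4 without a filter on low counts, 2 with at least 10 counts in every library and 4 in DESeq2, and leaving out 1 day gave 0 to 5. The number whose alectinib effect differed between lines was 3 and ranged from 1 to 4 when a day or a line and day pair was left out. The other counts of members stayed within 1.5 times their value under each alternative. The fold changes that turned in sign had not passed the threshold. With all 26 libraries, which include those labelled day 7, Notch1 in EA3 was at -0.0478 and Dll4 in EA3 at -1.34. On leaving out libraries, Dll4 in EA1 ranged from -1.02 to 0.74 (0.70 and 0.74 without day 5), Jag1 in EA3 from -0.49 to 0.39 (0.37 and 0.39 without day 3) and Hey1 in EA3 from -0.84 to 0.23 (0.22 and 0.23 without day 3). The cause was not tested. Notch2 in EA2 lost its call with DESeq2 size factors (adjusted p = 0.0503) and Notch2 in EA3 with each line fitted alone (adjusted p = 0.0571). At least 10 counts in every library left 6 of the 10 members in the fit, without Hey1, Nrarp, Dll4 and Notch3.

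Without the replicate block 4 members were called in EA1, 5 in EA2 and 4 in EA3, where the fit with it called 4, 6 and 5, and 3 differed between lines in both fits. The lost calls were Jag1 in EA2 (adjusted p = 0.0967) and Notch2 in EA3 (adjusted p = 0.0513), and leaving out the block changed no other call of a member. Dll4 at 0 to 7 counts in EA1 and EA3 is the member most limited by depth.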

Other observations

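The libraries labelled EA3 day 7, which were closer to EA2 than to EA3, held 1 sample per treatment and allow no test. Nrarp was at 11.3 CPM with DMSO and 0.593 CPM with alectinib, and Jag2 at 33.5 and 3.14 CPM. Dll1 was at 19.2 CPM with DMSO and 4.15 CPM with alectinib, where EA3 DMSO libraries of days 1 to 5 had 57.5 CPM or more and EA2 DMSO libraries 10.0 CPM or less. Dll4 had 38 counts with DMSO and 0 with alectinib. Notch1 was at 41.5 and 5.76 CPM, Notch2 at 151 and 229 CPM, Jag1 at 194 and 24.6 CPM and Hes1 at 43.8 and 18.1 CPM. Hey1 had 29 counts with DMSO and 3 with alectinib, and Notch3 18 and 10.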
